A study of Drosophila melanogaster with 13 samples.

Results

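f-cup, soti and hale are Drosophila genes of the cup and comet group, which spermatids transcribe after meiosis. They were picked by symbol: a probe belonged to a gene when the RefSeq transcript named on the array belonged to that symbol in the RefSeq gene table. This gave 3 genes among the 25782 targets of the array (genes, transcripts or cDNA clones), each read by 1 matched probe printed as 1 spot. The probe of f-cup (A_09_P090100) was designed for NM_001104302, 1 of 9 RefSeq transcripts of this gene on chromosome arm 3R. soti (A_09_P125820, NM_142101, arm 3R) and hale (A_09_P034811, NM_140908, arm 3L) have 1 RefSeq transcript each. All 3 passed the filter on dim probes and were among the 19758 targets tested. Probes named by FlyBase transcript IDs (15676 targets) could not be paired with symbols, so further probes of these genes may be on the array. Which exon or untranslated region a probe lies in was not analysed here, and the array's genome build differs from that of the gene table, so no positions are given.

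Most genes needed for sperm formation in the fly are transcribed in primary spermatocytes, before meiosis, and the messages are stored. The cup and comet genes are exceptions whose transcripts appear in elongating spermatids and gather at the ends of the spermatid bundle, in patterns that look like a cup or a comet. soti encodes an inhibitor of the Cullin-3 ubiquitin ligase that governs caspase activation when spermatids individualize. f-cup (flyers-cup) and hale are named for the cup and the comet pattern.

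Testes of adult males aged 0 to 2 days, raised at 25 °C, were dissected, and RNA from 80 pooled testes was hybridised to each of 13 one-colour arrays. Control testes (4 arrays) came from w[1118]/Y males that carried the deficiency Df(2R)BSC802 over +. For dany (3 arrays) the males were again w[1118]/Y, with this deficiency over dany[ex11]. The sa testes (2 arrays) came from +/Y males with a th sa[1] red chromosome over a ru h sa[2] ca chromosome. The aly testes (2 arrays) came from w*/Y males with aly[2] red e over aly[5] red e, and the topi testes (2 arrays) from +/Y; bw males with topi[Z3-0707] over topi[Z3-2139]. Only dany shares the deficiency with control, so in sa, aly and topi the mutated gene and the rest of the background cannot be told apart. sa encodes a testis TAF, and aly and topi encode parts of the testis meiotic arrest complex (tMAC). Loss of any of the 3 stops germ cells as mature primary spermatocytes. Each sample is a pool of whole testes, so fewer cells of a type and less RNA per cell cannot be told apart.

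The arrays lay on 4 slides. Slide 1 held control 1, dany 1, sa 1 and aly 1, and it was the only slide scanned on its day. On slide 2 were control 2, topi 1 and aly 2, on slide 3 topi 2, sa 2, dany 2 and control 3, and on slide 4 dany 3 and control 4. Slide 4 was likewise scanned alone on another day, while slides 2 and 3 shared a day. None of the listed spermatocyte, spermatid and early germ cell markers was matched, so the labelled tissue could not be checked against them. Of 9 somatic cyst and hub cell markers 3 were tested (eya, puc and ptc), and their summed signal, in multiples of the 75th percentile of the array, was 0.0678 to 0.139 on control arrays. It was 0.0765 to 0.0914 for dany, 0.0735 to 0.0921 for sa, 0.0924 to 0.170 for aly and 0.0995 to 0.122 for topi. Of 12 markers of other tissues 2 were tested (the gut protease gene Jon65Aiii and the lysozyme gene LysE). Their sum was 0.0238 to 0.0462 in control, 0.0332 to 0.0383 in sa and 0.0399 to 0.0457 in aly, against 0.592 to 0.738 in dany and 0.788 to 1.21 in topi. Of these 5 markers, eya rose in topi (1.21 on the log2 scale, limma adjusted p = 0.000719) and Jon65Aiii in dany (4.13, adjusted p = 6.74e-07). LysE rose in dany (4.66, adjusted p = 5.21e-07), aly (1.16, adjusted p = 0.0128) and topi (6.33, adjusted p = 2.76e-07), and no other mutant was called for any of the 5. LysE was well above background on 2 of 4 control arrays, and ptc on 2 of 4 control arrays and on none of sa, aly or topi. Jon65Aiii was well above background on 1 of 2 aly arrays and on none of topi, and puc on 1 of 2 topi arrays. The part of these 5 markers in the results below was not tested.

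Levels below are processed signals on the log2 scale, relative to the array's 75th percentile. To be called, a difference needed an adjusted p below 0.05 and a size of 2-fold or more. Levels of different probes are not compared with each other.

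f-cup was lower than in control in all 4 mutants. With 75th percentile scaling the fall was 6.43-fold for dany, 6.26-fold for sa, 3.47-fold for aly and 3.22-fold for topi. Its level was 4.74, 5.03, 4.93 and 4.99 on control arrays 1 to 4. In dany it was 2.00, 2.49 and 2.21, in sa 2.12 and 2.43, in aly 2.90 and 3.35 and in topi 3.38 and 3.09. No mutant array reached any control array. The same held for the processed signal before any scaling, which was 38674 to 68417 in control and 10351 to 19697 over the 9 mutant arrays. Its mean was 55654 in control and 15590 in dany. The 75th percentile, which each signal is set against, was itself higher on dany arrays (2743 to 3578, control 1220 to 2240). The spot was bright on every array, with a scanner error estimate of 10.0% of the signal. That includes sa, aly and topi, whose germ cells stop as primary spermatocytes. Which cells give the signal there was not tested.

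The group mean of f-cup was 4.92 ± 0.129 (SD, n = 4) in control, 2.24 ± 0.244 (SD, n = 3) in dany, 2.28 ± 0.222 (SD, n = 2) in sa, 3.13 ± 0.316 (SD, n = 2) in aly and 3.24 ± 0.211 (SD, n = 2) in topi. The difference from control was -2.68 in dany (SE 0.196, limma adjusted p = 1.05e-06). It was -2.65 in sa (SE 0.222, adjusted p = 9.04e-06), -1.80 in aly (SE 0.222, adjusted p = 3.99e-05) and -1.69 in topi (SE 0.222, adjusted p = 6.42e-05). Calls were common on this array. Against control, 43.7% of all targets tested were called for dany (28% higher, 15.6% lower) and 41.8% for sa (27% higher, 14.8% lower). For aly 59.7% were called (39.2% higher, 20.5% lower), and for topi 63.4% (42% higher, 21.4% lower). Of all targets, 3.54% had a lower difference than f-cup for dany and 6.65% for sa, against 17.0% for aly and 18.3% for topi. Within single slides, f-cup differed from control by -2.73, -2.44 and -2.77 in dany (slides 1, 3 and 4), by -2.62 and -2.50 in sa (slides 1 and 3), by -1.84 and -1.68 in aly (slides 1 and 2) and by -1.64 and -1.85 in topi (slides 2 and 3). The size of these falls depended on the scaling. For dany it was -1.65 under quantile normalization and -1.74 from the series table, but -3.44 under median scaling. Quantile normalization also shrank the other falls (sa -1.98, aly -1.46, topi -1.38), while ribosomal protein gene scaling enlarged them (sa -3.17, aly -2.52, topi -2.39). With spike-in scaling the topi call ended (-1.42, adjusted p = 0.122).

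**Figure D1:**
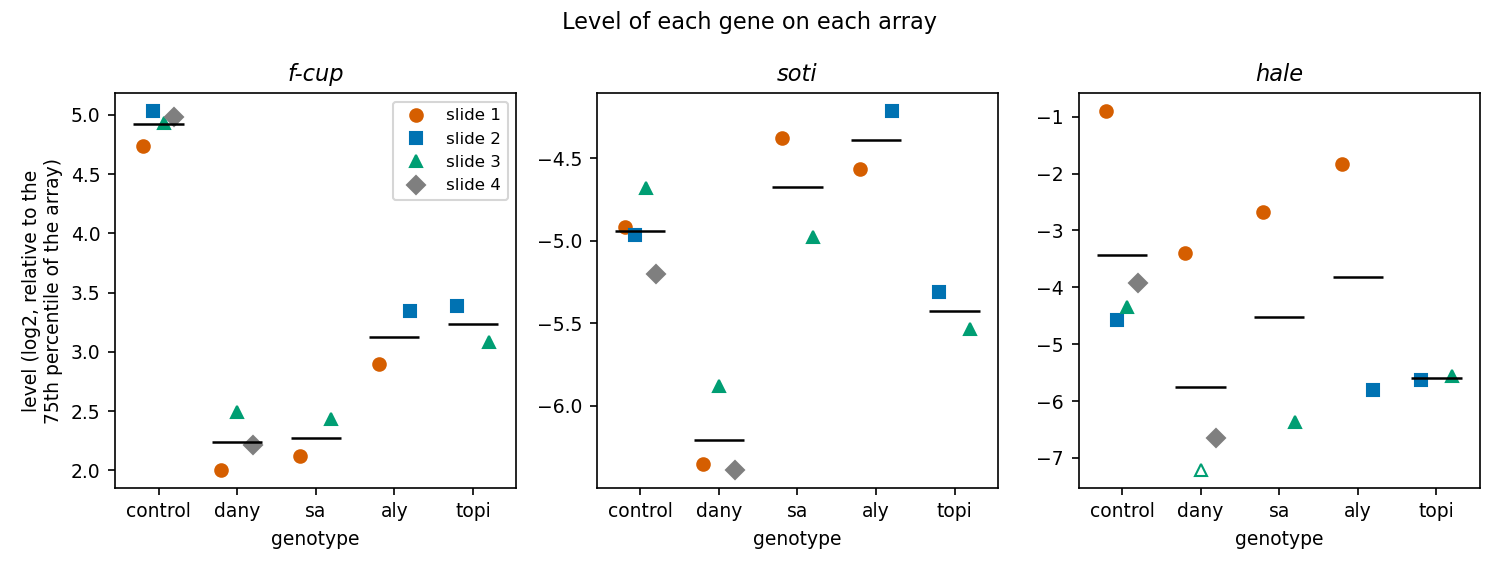
Level of f-cup, soti and hale on each of the 13 arrays, by genotype. The y axis is the level (log2, array 75th percentile at 0) and has its own range in each panel. Symbols give the slide, horizontal lines the group mean, and the open symbol the 1 array on which hale was not well above background. f-cup is at 4.74 to 5.03 in control and at most 3.38 in a mutant, while hale is high on every array of slide 1.

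The order of the f-cup levels was control, topi, aly, sa, dany. The neighbours topi and aly differed by 0.11 (95% interval -0.46 to 0.68, adjusted p = 0.813), and sa and dany by 0.04 (-0.48 to 0.56, adjusted p = 0.903). Between these pairs the gaps were larger. aly was above dany by 0.89 (SE 0.234, adjusted p = 0.00606) and above sa by 0.85 (SE 0.256, adjusted p = 0.0241). topi was above dany by 1.00 (SE 0.234, adjusted p = 0.00295) and above sa by 0.96 (SE 0.256, adjusted p = 0.0124). All 4 gaps passed the p threshold and stayed just under the 2-fold minimum, so none of the 6 differences between mutants was called. Against dany, 40.9% of all targets were called for sa (19.8% higher, 21.1% lower), 64% for aly (35.7% higher, 28.3% lower) and 67.4% for topi (37.6% higher, 29.8% lower). Against sa, 33.1% were called for aly (16.3% higher, 16.7% lower) and 38.9% for topi (21.2% higher, 17.7% lower). Between topi and aly it was 14.9% (7.66% higher in topi, 7.28% lower). The order rested on the scaling between arrays. Median scaling called all 4 gaps (1.36 to 1.89), and quantile normalization gave 0.19 for aly and 0.27 for topi against dany. Ribosomal protein gene scaling, which rests on 4 probes, turned these to -0.19 and -0.05.

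The median target tested differed little from control for dany (0.06), and by 0.44 for sa, 0.77 for aly and 0.81 for topi. Relative to that median, f-cup differed by -2.75 (dany), -3.08 (sa), -2.57 (aly) and -2.49 (topi). Its difference from control thus lay below that of the median target in each mutant by 5.63-fold or more. The share of rises among the called targets moved with the setting too. For dany it was 64.2%, but 33.5% under median, 55.2% under quantile, 77.4% under ribosomal protein gene and 87.3% under spike-in scaling, 51.5% after normexp and 55.3% from the series table. For sa it was 64.6%, but 50.6% under median and 40.0% under ribosomal protein gene scaling and 52.8% after normexp. For aly it was 65.7%, but 44.5% under ribosomal protein gene scaling and 50.8% under spike-in scaling. For topi it was 66.3%, but 47.0% under ribosomal protein gene scaling.

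soti, the caspase pathway gene, was lowest in dany, 2.40-fold below control, and was not called in the other mutants. Its level was -4.92, -4.96, -4.68 and -5.20 on control arrays 1 to 4 and -6.35, -5.88 and -6.39 in dany. It was -4.38 and -4.98 in sa, -4.57 and -4.22 in aly and -5.31 and -5.54 in topi. Every dany array lay below every other array, and both topi arrays lay below all 4 control arrays. Those of sa and aly reached into or above the control range. soti was dim: the processed signal was 32.8 to 115 over all arrays, beside a local background of 21.5 to 46, with an error estimate of 11.3% to 21.0% of the signal, yet the spot was well above background on all 13 arrays.

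The soti means were -4.94 ± 0.213 (SD, n = 4) in control, -6.21 ± 0.285 (SD, n = 3) in dany, -4.68 ± 0.425 (SD, n = 2) in sa, -4.39 ± 0.247 (SD, n = 2) in aly and -5.42 ± 0.159 (SD, n = 2) in topi. The difference in dany was -1.26 (SE 0.223, limma adjusted p = 0.00067). It was 0.26 in sa (95% interval -0.30 to 0.82, adjusted p = 0.401), 0.55 in aly (-0.01 to 1.11, adjusted p = 0.0755) and -0.48 in topi (-1.04 to 0.08, adjusted p = 0.11). Of all targets 15.5% had a lower difference than soti in dany, close to the 15.6% called lower there. Within slides, dany was below control by -1.43, -1.19 and -1.19 (slides 1, 3 and 4), and topi by -0.35 and -0.85 (slides 2 and 3). aly was above control by 0.35 and 0.75 (slides 1 and 2), while sa gave 0.54 on slide 1 and -0.30 on slide 3.

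The soti call in dany, unlike that of f-cup, was lost under some scalings. Before any scaling the processed signals overlapped, at 32.8 to 59.6 in dany and 33.2 to 87.2 in control. The 75th percentile of the array, which each signal is set against, was 2743 to 3578 in dany and 1220 to 2240 in control. It ended under spike-in scaling (-0.59, adjusted p = 0.565), and with ribosomal protein gene scaling (-0.92, adjusted p = 0.015) it missed the 2-fold minimum. Relative to the median target, soti differed by -1.33 (dany), -0.17 (sa), -0.22 (aly) and -1.29 (topi). On that footing topi stood about as low as dany. With ribosomal protein gene scaling topi was called lower than control (-1.19, adjusted p = 0.00664).

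Over the genotypes soti ran from aly through sa, control and topi to dany. dany was below sa by 1.53 (SE 0.266, adjusted p = 0.000871) and below aly by 1.81 (SE 0.266, adjusted p = 0.000148), which were both called. Both calls ended under ribosomal protein gene scaling and under spike-in scaling. topi was above dany by 0.78 (SE 0.266, adjusted p = 0.0213), short of 2-fold. topi was below aly by -1.03 (SE 0.292, adjusted p = 0.0359). That call ended when either aly array or either topi array was left out (-1.21 and -0.86 without aly 1 and aly 2, -1.14 and -0.92 without topi 1 and topi 2), and without control 2, where the difference itself is -1.03 with an adjusted p of 0.0566. aly and sa differed by 0.29 (95% interval -0.36 to 0.93) and topi and sa by -0.75 (-1.39 to -0.10, adjusted p = 0.0598).

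hale was lower than control in each mutant on every slide that held both genotypes, but its level also differed between slides by more than 10-fold. On control arrays 1 to 4 it was -0.91, -4.57, -4.34 and -3.93. In dany it was -3.39, -7.21 and -6.66, in sa -2.67 and -6.36, in aly -1.83 and -5.81 and in topi -5.63 and -5.56. The arrays with the high values, control 1, dany 1, sa 1 and aly 1, are the 4 arrays of slide 1, and topi has no array there. The processed signal of the control spot was 1028 on slide 1 and 80.03 to 110 on the other slides. The spot was well above background on 12 of 13 arrays, the exception being dany 2, and no array had an outlier flag for it.

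With 1 mean per genotype and no slide in the fit, the slide difference entered the error and no mutant was called. It also entered the estimates, because slide 1 held unequal shares of the genotypes' arrays and none of topi. The differences from control were -2.32 in dany (SE 1.346, limma adjusted p = 0.169), -1.08 in sa (SE 1.526, adjusted p = 0.576), -0.38 in aly (SE 1.526, adjusted p = 0.831) and -2.16 in topi (SE 1.526, adjusted p = 0.226). Once the fit held a slide term, the residual SD of hale fell from 1.762 to 0.146 and all 4 mutants were called lower. The differences were then -2.70 in dany (SE 0.115, adjusted p = 2.58e-06), -1.91 in sa (SE 0.134, adjusted p = 4.28e-05), -1.14 in aly (SE 0.135, adjusted p = 0.000202) and -1.07 in topi (SE 0.135, adjusted p = 0.000275). Lower calls were common in that fit too, at 3442 (dany), 3202 (sa), 4090 (aly) and 4382 (topi) of 19758 targets. With the slide as a random block, at an estimated correlation of 0.526 over all targets, dany was called (-2.61, adjusted p = 0.00441). sa (-1.70, adjusted p = 0.0679), aly (-0.99, adjusted p = 0.248) and topi (-1.30, adjusted p = 0.133) were then not called. Within slides, dany was below control by -2.49 on slide 1 and -2.73 on slide 4. On slide 3 the difference was -2.87, but the dany spot there was not well above background, so its size is uncertain. This dany array also enters the dany estimates above. sa was below control by -1.76 and -2.02 (slides 1 and 3). aly was below it by -0.93 and -1.24 (slides 1 and 2) and topi by -1.06 and -1.22 (slides 2 and 3). The slide 1 difference of aly is the single one of these 9 values that stayed under 2-fold.

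**Figure D2:**
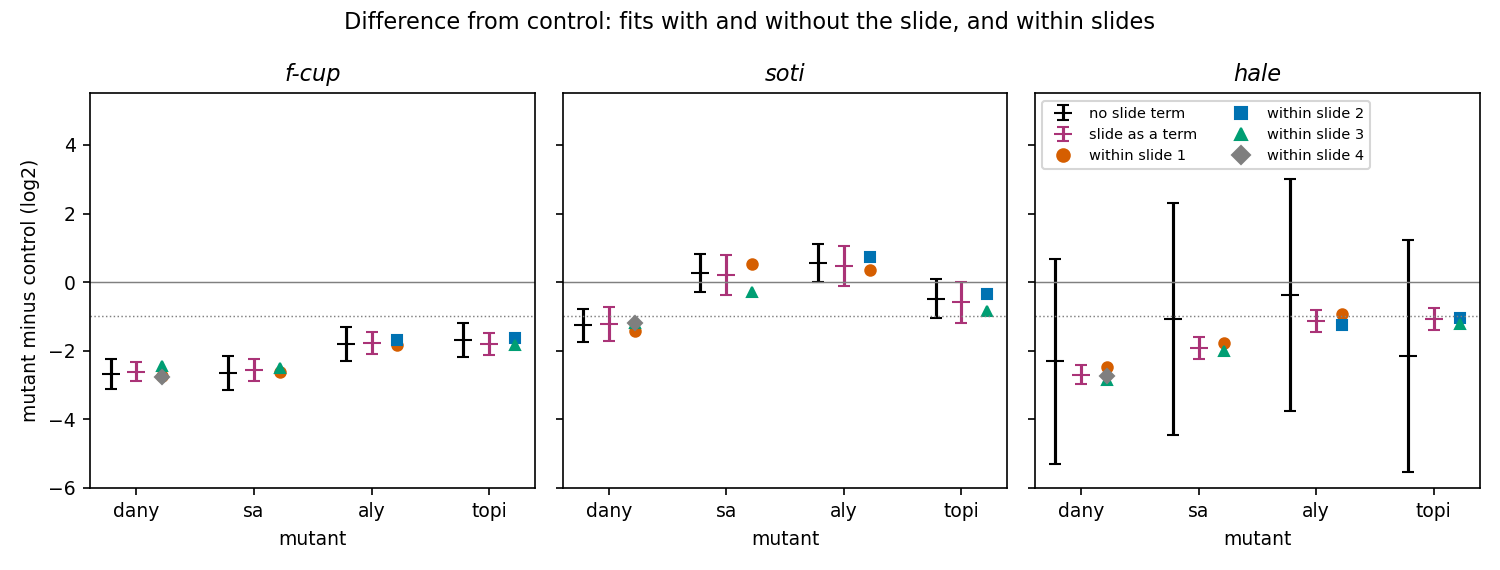
Difference of each mutant from control on the log2 scale, for f-cup, soti and hale. Horizontal ticks with bars are limma estimates with 95% intervals, without (black) and with (purple) the slide as a term; symbols are differences between single arrays of the same slide, and the dotted line marks a 2-fold fall. For hale the wide black bars shrink with the slide term to -2.70 (dany), -1.91 (sa), -1.14 (aly) and -1.07 (topi).

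With slide 1 left out, a choice made after its values were seen, the hale means were -4.28 ± 0.326 (SD, n = 3) in control, -6.93 ± 0.393 (SD, n = 2, 1 of them not well above background) in dany and -5.60 ± 0.049 (SD, n = 2) in topi. sa and aly had 1 array each, at -6.36 and -5.81, which the fit assumes to vary like the other groups. All 4 mutants were then called lower than control: -2.65 in dany (adjusted p = 0.000474), -2.08 in sa (adjusted p = 0.00606), -1.53 in aly (adjusted p = 0.0102) and -1.31 in topi (adjusted p = 0.00583). With the slide in the fit, control was highest, topi and aly came next, and sa and dany were lowest. topi and aly differed by 0.07 (adjusted p = 0.78). sa was above dany by 0.79 (adjusted p = 0.0022) and below aly by 0.77 (adjusted p = 0.00694). aly was above dany by 1.56 (adjusted p = 8.62e-05) and topi by 1.63 (adjusted p = 6.82e-05), both more than 2-fold.

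The rise on slide 1 was nearly even over the genotypes: 10.4-fold in control, 11.6-fold in dany, 12.9-fold in sa and 15.8-fold in aly, against the mean of the same genotype on the other slides. In the fit with genotype and slide, slide 1 differed from the mean of slides 2 to 4 by 3.57 for hale (SE 0.095, adjusted p = 1.14e-05). It differed by -0.33 for f-cup (SE 0.096, adjusted p = 0.038) and by 0.03 for soti (SE 0.174, adjusted p = 0.922), neither of which reached 2-fold. Of all targets 8.44% were called for this slide difference, made up of 7.58% higher on slide 1 and 0.86% lower. hale was among the 16 targets shifted furthest up, and 78 of 19758 were shifted up at least 8-fold against 1 shifted down as far. The 8 spots nearest to that of hale shifted by -0.40 to 2.86, with a median of 0.37. Since slide 1 was scanned alone on its day, slide, scan day and any sample handling shared by these 4 pools cannot be told apart.

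**Figure D3:**
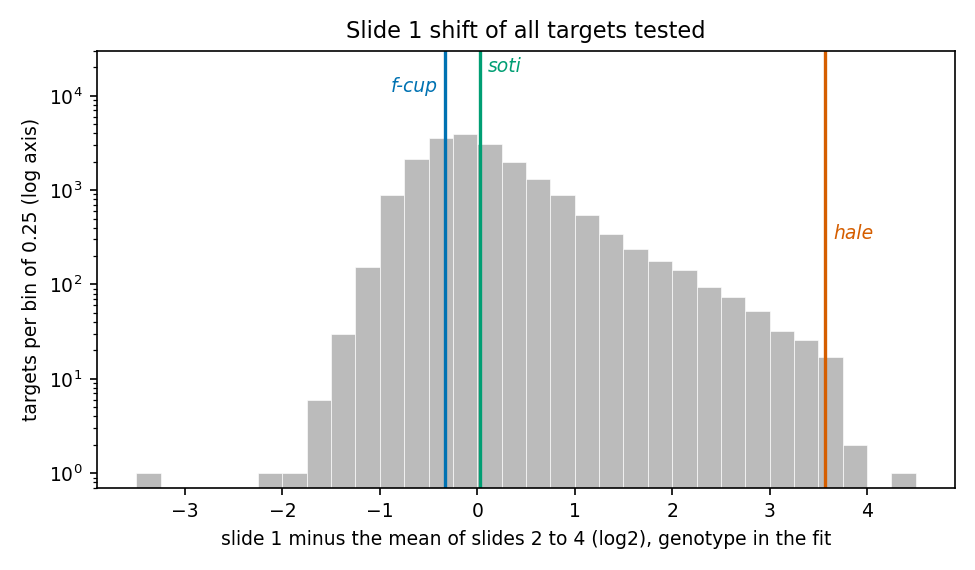
Slide 1 minus the mean of slides 2 to 4 (log2, genotype in the fit) for all 19758 targets tested, as a histogram with a log y axis. Lines mark f-cup at -0.33, soti at 0.03 and hale at 3.57, far in the upper tail.

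Changing the processing left f-cup lower than control in every mutant under each setting tried, by amounts that differed, as the comparison of settings shows. It moved soti in sa to either side of 0 and decided whether soti in dany and topi was called. For hale in sa and aly, the fits without slide 1 or with the slide as a term were the settings, of those run, that called a fall.

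**Figure D4:**
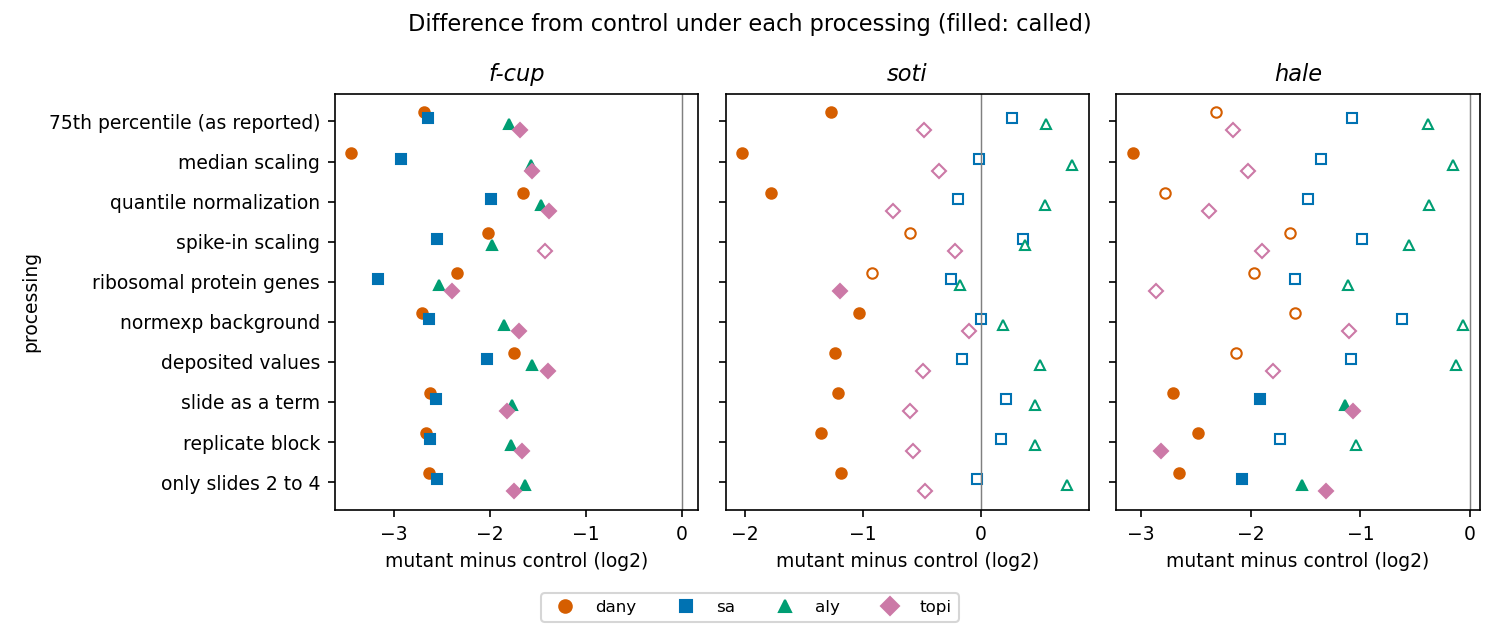
Mutant minus control (log2) for f-cup, soti and hale under 10 ways of processing, named on the y axis. Filled symbols passed the adjusted p and the 2-fold minimum. f-cup is below 0 throughout and called except in topi under spike-in scaling, soti in dany lies between -2.02 and -0.59, and hale is called in all 4 mutants with the slide as a term and with slides 2 to 4 alone.

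Across arrays, the genes followed each other to different degrees. Over the 9 arrays of slides 2 to 4, f-cup and hale levels correlated at r = 0.95, f-cup and soti at 0.52 and soti and hale at 0.50. Leaving out slide 1 was a choice made after its values were seen. Over all 13 arrays the 3 values were 0.29, 0.38 and 0.38. Over the 5 genotype means, slide 1 included, they were 0.65, 0.28 and 0.80. These are descriptions: the arrays share genotypes, so they are not independent points.

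Among 178 other matched and tested genes whose symbol is more than a CG or CR number, the 3 with the highest r with f-cup over 13 arrays were grh (0.95), Pgm2a (0.92) and GramD1B (0.89). grh, which encodes the transcription factor Grainy head, was well above background on all 4 control arrays and on none of the 9 mutant arrays, so its r rests on control against unmeasured levels. Within genotypes, r with f-cup was -0.0032 for grh, 0.28 for Pgm2a and 0.43 for GramD1B. Of all targets, 51 had an r with f-cup at least as high as that of grh. For soti the closest were I-2, which encodes a protein phosphatase inhibitor (r = 0.85; 0.95 over means), Hs2st, a heparan sulfate sulfotransferase gene (0.83), and ND-B17.2, of mitochondrial complex I (0.79). Within genotypes their r with soti was 0.20, 0.53 and -0.20. The level of I-2 was 2.05 in dany and 2.62 to 2.99 in the other genotypes. For hale they were puc, a phosphatase gene and one of the somatic markers above (r = 0.90), the chromatin remodeller gene kis (0.84) and lncRNA:sphinx (0.84). These 3 also stood higher on slide 1, by 1.45, 2.15 and 1.80, and within genotypes their r with hale was 0.89, 0.96 and 0.98.

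Other genes of the same class could hardly be followed. Of 11 listed comet genes 2 were matched and tested, soti and hale, and in the fit without a slide term 1 of them (soti) was called, lower in dany, where 15.6% of all targets were. With the slide as a term hale was called lower in all 4 mutants, as given above. Of 11 cup genes only f-cup was matched, called lower in all 4 mutants. Of all targets, 15.6% (dany), 14.8% (sa), 20.5% (aly) and 21.4% (topi) were called lower. None of 23 other late spermatid genes or of 7 meiotic cell cycle genes was matched, and of 17 genes of the caspase and Cullin-3 pathway only soti. Of 18 meiotic arrest genes 1 was tested, wuc, which encodes a partner of tMAC. It moved the other way from f-cup and hale in the tMAC mutants, rising by 2.23 in aly (adjusted p = 5.29e-05) and 3.05 in topi (adjusted p = 6.21e-06), while dany (-0.35) and sa (0.66) were not called. Such rises were common, called for 39.2% of all targets in aly and 42% in topi. The rest of these lists was not analysed here.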

How the data were processed

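Arrays were scanned and spots extracted by the authors with Agilent Feature Extraction 10.7.3.1, per the file headers. The deposited scanner files give linear intensity per spot (processed signal, raw median signal, local background) with 0 or 1 flags. The deposited series table gives log2 values whose normalization is not given in the sources used here; their medians over non-control spots were 8.02 to 8.05, and they served only as an alternative.

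Groups came from the sample titles. Each array was scaled by the 75th percentile of its processed signal, on the log2 scale. Spots of a probe were averaged, a probe was kept if some genotype had it well above background on all its arrays, and targets with several such probes were read from the brightest. Symbols matched 549 of 32162 probes (468 genes). limma 3.58.1 in R 4.3.3 fitted 1 mean per genotype to all 13 arrays and all 19758 targets (8 residual and 2.42 prior degrees of freedom), and p-values were adjusted by Benjamini-Hochberg over all targets, two-sided. Precision is limited by how few arrays there are, with a median SE of 0.306 for dany and 0.347 for sa against control. The series' design text calls the samples biological replicates, so p-values reflect the spread between pools of testes. That spread also holds the differences between slides, because this fit has no slide term. With a slide term the residual SD of f-cup fell from 0.256 to 0.148.

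The members, gene lists and tests were chosen with earlier results of these data known. Named genes are the 3 members, the tested genes of the lists, and the 3 matched genes most correlated with each member. Alternatives changed the scaling, background correction (normexp, offset 50, on the median in place of the mean signal), filter, slide or replicate term and the arrays used.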

Additional observations from a re-analysis of the deposited data

Results flagged for a closer look

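1 control array stood apart for hale. Its processed signal was 1028 on control array 1 and 80.03 to 110 on the other control arrays. The gap to the next array was 0.968 of the group's range, above Dixon's 95% critical value for 4 samples. On the log2 scale the share was 0.824, just under that value. For normally distributed values, chance gives such a mark in about 1 of 20 groups. Because f-cup, soti and hale were each checked on both scales, a mark somewhere is likelier than that. The array lies on slide 1, where the dany, sa and aly arrays were also high for hale (340, 375 and 689, against 23.6 to 33.6 for the same genotypes elsewhere). No control array stood apart for f-cup or soti.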

How the results depend on the processing

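Values are log2 differences. Slides 2 to 4 alone were added after the data were seen. Scaling moved most results. With median scaling, f-cup was 1.87 (aly) and 1.89 (topi) above dany and 1.36 and 1.37 above sa, hale in dany was -3.07 (called), and soti was -0.016 for sa against control, 1.67 for topi against dany (called) and -1.13 for topi against aly. With quantile normalization, f-cup sa against dany was -0.33, and soti was -0.19 for sa against control and 1.04 for topi against dany (called). With spike-in scaling, f-cup was -0.54 for sa against dany and -1.42 for topi against control, and hale topi against dany was -0.25. soti was then -0.59 for dany against control, 0.97 and 0.95 for aly and sa against dany and -0.59 for topi against aly. With ribosomal protein gene scaling, f-cup was -0.83, -0.19 and -0.053 for sa, aly and topi against dany, and hale topi against dany was -0.89. soti was then -0.92, -0.26, -0.18 and -1.19 for dany, sa, aly and topi against control, 0.66, 0.74 and -0.27 for sa, aly and topi against dany and -1.01 for topi against aly. After normexp, f-cup topi against dany was 1.01 (called), and soti was -0.00059 for sa against control and -0.29 for topi against aly. In the series table, f-cup sa against dany was -0.28, and soti was -0.16 for sa against control and -0.99 for topi against aly. soti topi against aly stayed at -1.03 but was no longer called with no filter on dim probes or with only the 2 groups in the fit. The cause of these changes was not tested.

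Slide settings moved hale. With the slide as a term it was -2.70, -1.91, -1.14 and -1.07 for dany, sa, aly and topi against control, 1.56 and 1.63 for aly and topi against dany, 0.84 for topi against sa and 0.070 for topi against aly, and f-cup topi against aly was -0.042. With the slide as a random block, hale was -2.61 in dany (called) and 0.40 for topi against sa, and f-cup topi against aly was -0.011. On slides 2 to 4, hale was -2.65, -2.08, -1.53 and -1.31 against control, 1.12 and 1.34 for aly and topi against dany, 0.77 for topi against sa and 0.22 for topi against aly, f-cup topi against aly was -0.11, and soti was -0.028 for sa against control and -1.21 for topi against aly. Within slide 3, f-cup topi was 0.60 above dany and 0.65 above sa, hale topi 0.80 above sa, and soti was -0.30 (sa) and -0.85 (topi) against control and 0.90 (sa) and 0.34 (topi) against dany. Within slide 1, soti sa was 1.98 above dany and aly -0.19 against sa, and within slide 2 hale topi was 0.18 above aly.

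The labels do not say that replicate numbers mark a shared batch, and not every same-numbered pair correlated above 0.1 (-0.05 to 0.68 for 11 pairs on different slides, -0.05 to 0.75 for 16 pairs on 1 slide), so the numbers were not taken as pairs. The median r was 0.56 for the pairs on 1 slide, whatever their numbers, and 0.034 for same-numbered pairs on different slides. Deviations within a group of 2 arrays mirror each other, so pairs with such a group cannot tell number from slide. For control against dany, same-numbered pairs on different slides gave 0.49 and -0.03. Pairs of other numbers on 1 slide gave 0.60 and 0.52. With the replicate block, hale was -2.48 in dany and -2.81 in topi (both called) and -0.33 for topi against dany, f-cup topi against dany was 1.00 (called), and soti topi against aly was -1.03 (not called). Array 1 of each genotype lay on slide 1 except topi 1, which lay on slide 2. The topi values of hale under this block therefore carry part of the slide difference. Numbers of targets called moved by over 1.5 times with spike-in scaling (6846 for aly, 3338 for sa) and when a probe had to be above background on every array (4568, 4805, 7103 and 7531 for dany, sa, aly and topi), where fewer targets were tested and hale had no value. Another probe per gene could not be tried, since 1 was matched to each.

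Leaving out 1 array at a time changed no call against control for any of the 3 genes. f-cup ranged from -0.12 to 0.20 for sa against dany, 0.67 to 1.11 for aly against dany, 0.85 to 1.15 for topi against dany, 0.63 to 1.07 for aly against sa, 0.80 to 1.12 for topi against sa and -0.11 to 0.33 for topi against aly. hale ranged from -2.92 to 0.77 for sa and -2.38 to 1.61 for aly against control, -0.61 to 3.09, -0.060 to 3.92 and -0.57 to 1.34 for sa, aly and topi against dany, -1.30 to 2.68 and -2.93 to 0.77 for aly and topi against sa and -3.76 to 0.22 for topi against aly. soti ranged from -0.036 to 0.56 for sa against control, -0.015 to 0.59 for aly and -1.05 to -0.45 for topi against sa and -1.21 to -0.86 for topi against aly.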
